A study of Mus musculus with 16 samples.

Results

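Complex I subunits and their assembly factors were followed through every gene of the deposited table whose symbol begins with Nduf. The table held 45 such genes among 24421. Of these, 36 encode structural subunits of the enzyme, 7 are the assembly factors that carry an Ndufaf symbol, and 2 (Ndufa4 and Ndufa4l2) bear the name without being counted as complex I subunits today. The genes lie on 16 chromosomes, with Ndufa1 and Ndufb11 on the X, so they share no single locus. Counts were sufficient for testing in 44 of the 45. The exception, the membrane arm subunit Ndufs5, had 0 counts in all 16 libraries. Whether its reads were lost in alignment or annotation, or its transcript was absent, was not tested. Ndufb1 and the mitochondrially encoded subunits are not analysed here.

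The libraries came from ventricles of C57BL/6N mice labelled male, operated on at 9 to 10 weeks of age and sampled 5 weeks later, with 4 libraries in each of 4 groups. JP2CR mice carry a Jph2 knock-in allele without codons 563 to 568, which makes junctophilin-2, the protein that holds the T-tubule and the sarcoplasmic reticulum together, resistant to calpain. The groups were JP2CR after transverse aortic constriction (TAC, which loads the left ventricle with pressure), JP2CR after sham surgery, wild-type (WT) littermates after TAC, and WT littermates after sham surgery. The labels do not say which animal gave which library, and the p-values therefore reflect variation among libraries, which may be technical.

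Complex I (NADH:ubiquinone oxidoreductase) takes electrons from NADH, passes them along a chain of iron-sulfur clusters to ubiquinone and pumps protons across the inner mitochondrial membrane. Its core subunits do the chemistry in a matrix arm and a membrane arm, its accessory subunits surround and stabilise both arms, and assembly factors bind the growing enzyme without remaining in it. Heart muscle, which relies on oxidative phosphorylation, is among the tissues richest in this enzyme.

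Library totals were between 9966782 and 16609732 counts, so that 3 counts, the limit a count of 0 allows, correspond to 0.185 to 0.314 CPM (counts scaled by library size, as edgeR gives them; counting error only). Jph2 averaged 631 ± 33.3 CPM in JP2CR TAC, 686 ± 64.1 in JP2CR sham, 663 ± 24.5 in WT TAC and 668 ± 37.6 in WT sham (SD, n = 4 each), and because the deletion is short and in frame its total counts do not check the genotype. Libraries 3 and 4 of JP2CR sham went against the male label, with Xist at 189 and 196 CPM and 0 counts of the Y-linked Ddx3y, Eif2s3y, Kdm5d and Uty. Library 4 of JP2CR TAC had Xist at 141 CPM together with Y-linked counts, and the other 13 had at most 0.266 CPM; these 3 are called Xist-positive below. Library 3 of each TAC group lay between libraries 1 and 2: of the genes at which those 2 differed by more than 5 counting errors, it was intermediate for 99.0% in JP2CR TAC and 99.3% in WT TAC, against 17.2% in JP2CR sham and 89.4% in WT sham. Results are given without these 5 libraries where that matters.

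Promoter sequences were available for 32 of the 36 structural subunits and 6 of the 7 Ndufaf genes (RefSeq, GRCm38.p6, from 250 bases before to 50 bases after each start). They were searched on both strands for short cores bound by regulators of respiratory genes. AAGGTCA, the estrogen-related receptor half-site, was found in 9.38% of the structural subunit promoters (Ndufb2, Ndufb4 and Ndufs5), in 0 of the 6 assembly factor promoters and in 4.72% of all 32851 mouse promoters. GCATGCGC, the NRF1 core, which overlaps its own reverse complement within 10 bases, was present in Ndufa6, Ndufa8 and Ndufa11 (9.38%), in Ndufaf4 and Ndufaf5 (33.3%) and in 2.71% of all promoters. CCGGAAG, the ETS and GABP core, occurred in Ndufb6, Ndufb7, Ndufs3 and Ndufs8 (12.5%), in Ndufaf1 (16.7%) and in 8.86% of all. AAGATGG, the YY1 core, occurred in Ndufa3, Ndufa9, Ndufb8, Ndufc1, Ndufs4, Ndufs6 and Ndufs7 (21.9%), in 0 of the 6 assembly factors and in 6.34% of all. Each match describes letters in this window and is not a measured binding site.

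Sequences are shown, in lower case with motif matches in capitals, for 5 genes named in the results below. Whether a motif goes with the change after TAC was not tested. Ndufab1 (chr7:122101839-122102098, minus strand) is among the subunits that fell most after TAC in WT hearts and holds none of the 4 cores. Ndufa11 (chr17:56717512-56717771, plus strand) holds the NRF1 core and was not called. Ndufaf4 (chr4:24897833-24898092, plus strand) is the assembly factor that fell most after TAC in JP2CR hearts. It has an NRF1 core upstream of its start and another from base 2 of the gene. These 3 run from 250 bases before the start to 10 bases after it.
Ndufab1: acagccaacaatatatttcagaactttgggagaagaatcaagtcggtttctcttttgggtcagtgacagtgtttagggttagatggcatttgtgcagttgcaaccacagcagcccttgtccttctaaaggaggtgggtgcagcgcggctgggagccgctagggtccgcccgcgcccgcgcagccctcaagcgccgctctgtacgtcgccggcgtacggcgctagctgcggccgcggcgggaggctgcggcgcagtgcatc
Ndufaf4: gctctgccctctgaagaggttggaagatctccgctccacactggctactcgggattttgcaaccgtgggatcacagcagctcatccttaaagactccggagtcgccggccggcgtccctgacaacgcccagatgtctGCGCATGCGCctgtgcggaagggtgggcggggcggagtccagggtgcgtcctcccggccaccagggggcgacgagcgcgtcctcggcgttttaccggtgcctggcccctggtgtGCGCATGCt
Ndufa11: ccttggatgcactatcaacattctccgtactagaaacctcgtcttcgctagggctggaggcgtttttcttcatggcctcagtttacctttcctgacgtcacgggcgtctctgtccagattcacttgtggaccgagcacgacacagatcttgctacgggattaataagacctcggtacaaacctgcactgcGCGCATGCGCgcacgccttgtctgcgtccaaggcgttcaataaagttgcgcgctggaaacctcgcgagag
The other 2 are windows of 30 bases around a match just downstream of the start, the NRF1 core in Ndufaf5 (chr2:140170652-140170681, plus strand) and the YY1 core in Ndufs4 (chr13:114388045-114388074, minus strand).
Ndufaf5: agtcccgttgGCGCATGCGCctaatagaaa
Ndufs4: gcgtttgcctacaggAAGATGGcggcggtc

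Structural subunit transcripts were far more abundant than those of the assembly factors in every group. Per kilobase of merged exons, the structural subunits had a median of 274 CPM in JP2CR TAC, 318 in JP2CR sham, 279 in WT TAC and 326 in WT sham. The Ndufaf genes had medians of 16.8, 21.4, 16.1 and 20.2 CPM per kilobase in the same 4 groups. In WT sham the structural subunits spanned 37.3 to 788 CPM per kilobase and the assembly factors 13.4 to 38.7, so the lowest subunit, Ndufb2, lay just below the highest assembly factor, Ndufaf1. Merged exons take in every annotated transcript, which lowers the value per kilobase of a gene with a long alternative exon. Among the 44 genes the median coefficient of variation between libraries of 1 group was 3.38% in JP2CR TAC, 4.75% in JP2CR sham, 4.14% in WT TAC and 4.55% in WT sham.

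After TAC the complex I subunits fell almost as a block in both genotypes. In JP2CR TAC against JP2CR sham, 33 of 35 structural subunits fell and 0 rose (edgeR's quasi-likelihood test, adjusted p under 0.05), where 20.7% of all 13522 genes tested were called lower and 20.7% higher. In WT TAC against WT sham, 31 of 35 fell and 0 rose, where 20.8% of all genes were called lower and 21.1% higher. The median log2 fold change of the 35 subunits was -0.32 (-19.9%) in each comparison, beside medians over all genes of -0.004 in JP2CR and -0.001 in WT. Among the 3400 genes within the subunits' own range of abundance, 29.3% were called lower in JP2CR TAC and 28.0% in WT TAC. In 34 of the 35 in JP2CR and 30 in WT, every TAC library was below every sham library, as were 17.3% and 21.0% of all genes. In bulk ventricle, fewer cells of a type and less RNA per cell cannot be told apart.

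**Figure D1:**
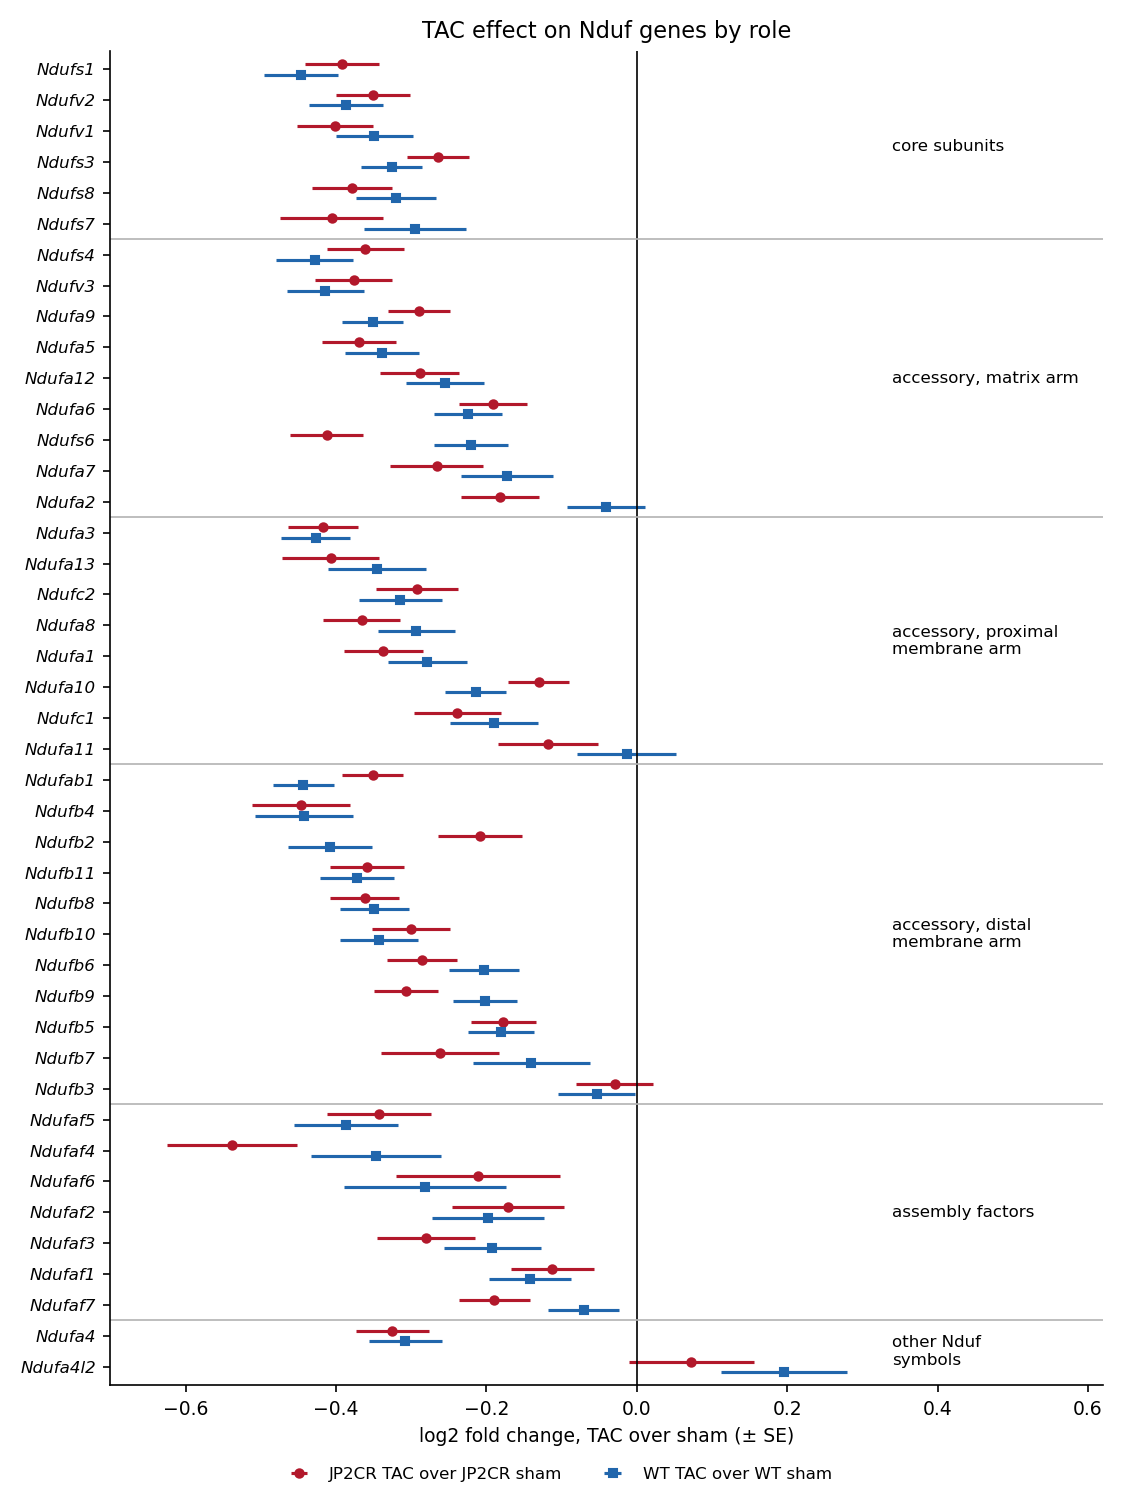
Log2 fold change after TAC of tested Nduf genes, grouped by role, in JP2CR (red circles) and WT (blue squares); bars are the standard error of each edgeR estimate. All structural subunits and assembly factors drawn lie to the left of 0 in both genotypes, and Ndufa4l2 is the gene to the right of it.

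In the matrix arm, which holds the nuclear-encoded core subunits, 16 of 16 core and accessory subunits fell in JP2CR TAC and 15 of 16 in WT TAC. Of all genes tested, 20.7% and 20.8% were called lower in the same order. At the NADH end, Ndufs1 (chr1:63143592-63176822, GRCm38.p6) carries iron-sulfur clusters and is the largest subunit of the complex. Ndufs1 had 836, 777, 802 and 838 CPM in JP2CR TAC and 1093, 1101, 991 and 1085 CPM in JP2CR sham. It had 783, 791, 777 and 855 CPM in WT TAC and 1142, 1047, 1129 and 1051 CPM in WT sham. Every TAC library was below every sham library, with log2 fold changes of -0.39 ± 0.05 in JP2CR (SE; edgeR adjusted p = 8.1e-06) and -0.45 ± 0.05 in WT (edgeR adjusted p = 1.47e-06). Ndufv1, which binds NADH and the flavin that takes its electrons, fell by 24.3% in JP2CR TAC and by 21.5% in WT TAC. Ndufv2, its iron-sulfur partner, fell by 21.6% and 23.5% in the same order.

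Toward the ubiquinone end of the matrix arm, the chain of clusters meets ubiquinone. Ndufs7, which holds the last cluster of the chain, averaged 308 ± 16.9 CPM in JP2CR TAC against 408 ± 21.5 in JP2CR sham, and 316 ± 27.9 CPM in WT TAC against 388 ± 29.2 in WT sham (SD, n = 4 each). Its log2 fold changes were -0.41 ± 0.07 in JP2CR and -0.29 ± 0.07 in WT (edgeR adjusted p = 0.000143 and 0.00198). Ndufs8, with further clusters of the chain, and Ndufs3, of the same module, fell in JP2CR TAC (log2 fold changes of -0.38 and -0.26) and in WT TAC (-0.32 and -0.33). TAC and sham libraries did not overlap for these core subunits in either genotype.

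Accessory subunits of the matrix arm moved with the core: 9 of 9 fell in JP2CR TAC and 8 of 9 in WT TAC. All genes tested were called lower at 20.7% and 20.8%. The median log2 fold changes of these accessory subunits were -0.29 and -0.26. Ndufs4, whose loss in mice gives a Leigh-like encephalopathy, had 190.5, 189, 191 and 193 CPM in JP2CR TAC and 241, 249, 243 and 247 CPM in JP2CR sham. In WT it had 178, 177, 183 and 205 CPM after TAC and 264, 235, 259 and 243 CPM after sham. The groups were separate in both genotypes, and Ndufs4, whose start region with the YY1 core is printed above, fell by 22.1% in JP2CR and by 25.7% in WT (edgeR adjusted p = 2.87e-05 and 3.61e-06). Ndufs6 (chr13:73319876-73328482), a zinc-binding subunit added late, when the matrix arm is completed, had 225, 236, 233 and 240.3 CPM in JP2CR TAC and 313, 309.9, 297 and 323 CPM in JP2CR sham. It had 239.7, 228, 231 and 262 CPM in WT TAC and 289.9, 267, 279 and 282 CPM in WT sham. Its groups also did not overlap, and it fell by 24.9% in JP2CR and by 14.2% in WT. Ndufa2, a small subunit with a thioredoxin-like fold, fell in JP2CR TAC (log2 fold change -0.18, edgeR adjusted p = 0.00955) and was the only matrix arm subunit not called in WT TAC (-0.04, edgeR adjusted p = 0.562). The JP2CR call of Ndufa2 was lost without all 5 libraries that stand apart (log2 fold change -0.20, edgeR adjusted p = 0.081, range 0.00566 to 0.081 over the alternatives).

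In the membrane arm, which pumps protons, 7 of 8 tested accessory subunits of the proximal part fell in each genotype. In the distal part, 10 of 11 fell in JP2CR TAC and 9 of 11 in WT TAC. Of all genes tested, 20.7% were called lower in JP2CR TAC and 20.8% in WT TAC. Ndufab1, the mitochondrial acyl carrier protein that also serves fatty acid synthesis in the organelle, had 195, 183, 195 and 190.0 CPM in JP2CR TAC and 240.4, 248, 235 and 250.5 CPM in JP2CR sham. It had 193, 190.3, 181 and 186 CPM in WT TAC and 258, 258, 256 and 249 CPM in WT sham. These groups were far apart relative to their spread, with log2 fold changes of -0.35 ± 0.04 in JP2CR (edgeR adjusted p = 3.45e-06) and -0.44 ± 0.04 in WT (edgeR adjusted p = 1.88e-07, the smallest of any Nduf gene). Ndufb4, a distal subunit, averaged 43.8 ± 1.3 CPM in JP2CR TAC against 59.8 ± 5.33 in JP2CR sham, and 44.7 ± 2.51 CPM in WT TAC against 60.7 ± 3.75 in WT sham (SD, n = 4 each). It fell by 26.6% in JP2CR and by 26.4% in WT. Ndufa3, a proximal subunit, fell by 25.1% and 25.6% in JP2CR and WT. The X-linked Ndufa1, needed for the proximal membrane arm, fell by 20.8% and 17.6%, and the X-linked Ndufb11, of the distal part, by 22.0% and 22.7%, in the same order of genotypes.

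A few membrane arm subunits stood outside this pattern. Ndufa11, which lies where complex I meets complex III in supercomplexes, had 299.9, 284, 292 and 288 CPM in JP2CR TAC and 315, 309, 316 and 324 CPM in JP2CR sham. In WT it had 345, 258, 314 and 312 CPM after TAC and 291, 318, 302 and 329 CPM after sham. The groups did not overlap in JP2CR but were interleaved in WT, and it was called in neither comparison (log2 fold changes of -0.12 ± 0.07 in JP2CR, edgeR adjusted p = 0.167, and -0.01 ± 0.07 in WT, edgeR adjusted p = 0.892). Without library 2 of WT TAC its WT log2 fold change was 0.06, and without library 4 of WT sham 0.01. Ndufb3, a small distal subunit, averaged 147 ± 4.76 CPM in JP2CR TAC against 150.3 ± 9.52 in JP2CR sham and 147 ± 5.46 CPM in WT TAC against 152 ± 6.3 in WT sham, with overlapping libraries and no call (log2 fold changes of -0.03 and -0.05). Leaving out library 3 of JP2CR sham turned the JP2CR fold change to 0.02 (log2). Ndufb7, on the intermembrane side, fell in JP2CR TAC (log2 fold change -0.26 ± 0.08, edgeR adjusted p = 0.0124) but not past the threshold in WT TAC (-0.14 ± 0.08, edgeR adjusted p = 0.162). Its JP2CR call was lost without library 4 of JP2CR sham (edgeR adjusted p = 0.0501, range 0.00766 to 0.129 over the alternatives).

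**Figure D2:**
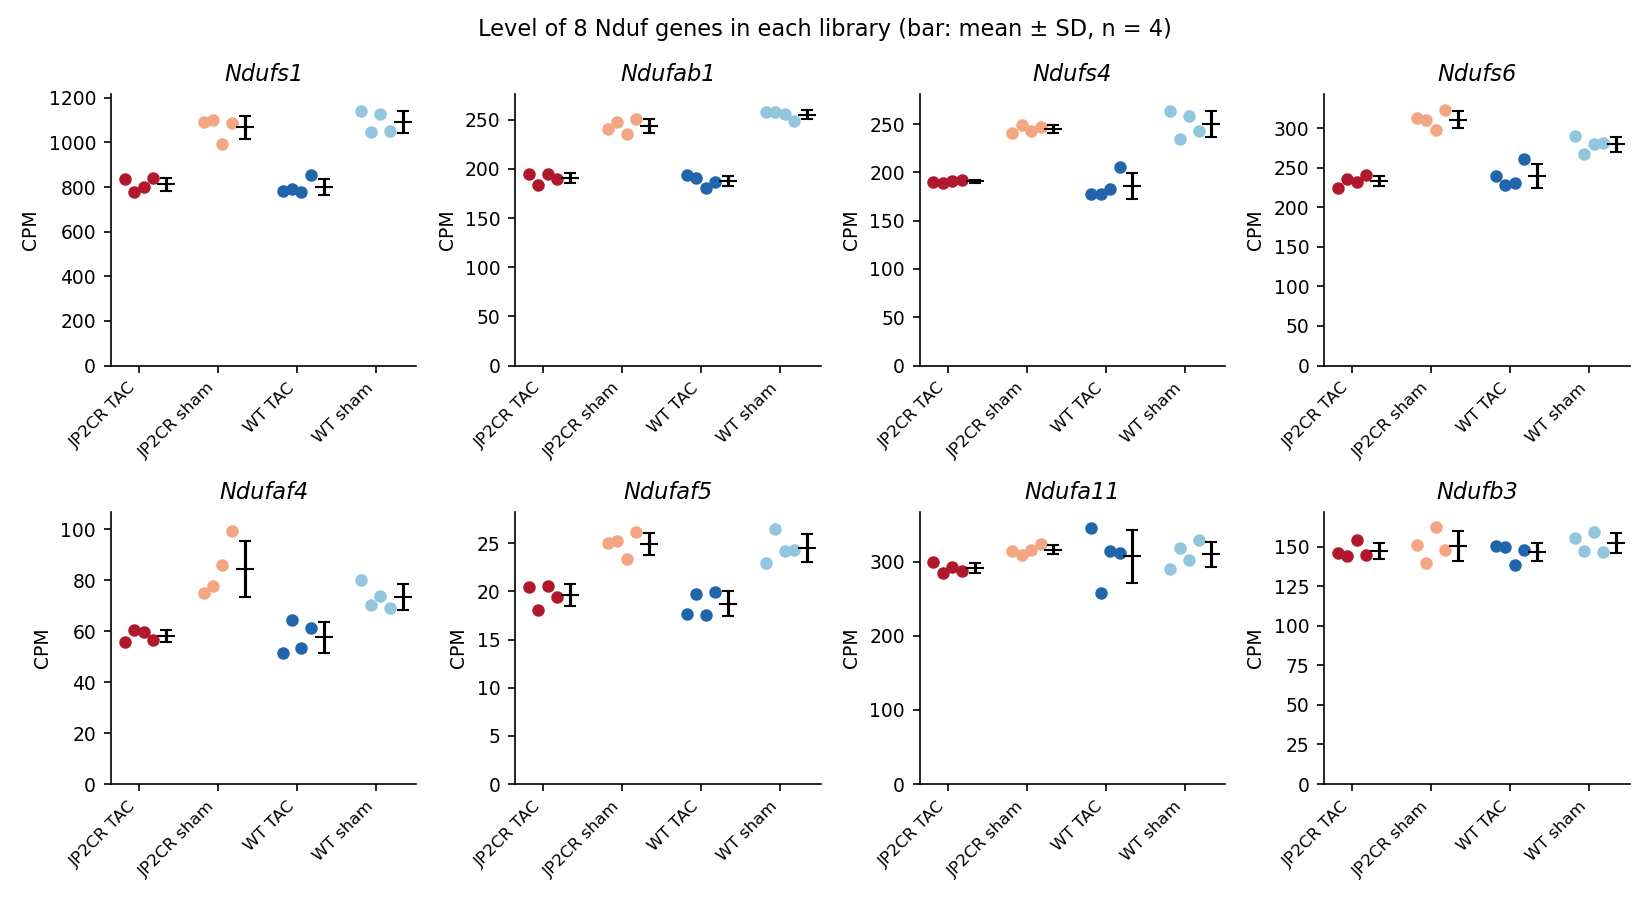
CPM of 8 genes in each library (points), with the mean and SD of each group (n = 4), in the order JP2CR TAC, JP2CR sham, WT TAC, WT sham. Ndufs1, Ndufab1, Ndufs4, Ndufs6, Ndufaf4 and Ndufaf5 have all TAC libraries below all sham libraries of their genotype, Ndufa11 does so in JP2CR, and Ndufb3 overlaps in both genotypes.

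The Ndufaf assembly factors also lay lower after TAC, with smaller medians than the subunits, a difference between classes that was not tested. In JP2CR TAC 4 of 7 fell, with a median log2 fold change of -0.21 (-13.6%), and in WT TAC 6 of 7 fell, with a median of -0.20 (-12.8%). Among the 5592 genes in their range of abundance, 22.8% were called lower in JP2CR TAC and 21.6% in WT TAC. The WT count was 3 instead of 6 without library 1, 3 or 4 of WT sham, or without library 2 or 3 of WT TAC, and also 3 with DESeq2. Their roles are known mainly from human cells.

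Ndufaf3 and Ndufaf4 bind each other and act early, on the ubiquinone module. Ndufaf4 had 55.7, 60.4, 59.5 and 56.8 CPM in JP2CR TAC and 75.0, 77.6, 86.0 and 99.4 CPM in JP2CR sham. It had 51.6, 64.3, 53.4 and 61.3 CPM in WT TAC and 80.3, 70.5, 73.7 and 69.2 CPM in WT sham. All TAC libraries were below all sham libraries, and JP2CR sham spread the most because its libraries 3 and 4 were the highest of all. Ndufaf4, whose promoter with 2 NRF1 cores is printed above, fell by 31.1% in JP2CR (log2 fold change -0.54 ± 0.09, edgeR adjusted p = 9.05e-05) and by 21.4% in WT (-0.35 ± 0.09, edgeR adjusted p = 0.00351). Without the 3 Xist-positive libraries the JP2CR log2 fold change was -0.38 (edgeR adjusted p = 0.00343, range 8.57e-08 to 0.0115 over the alternatives). Ndufaf3 averaged 26.1 ± 1.8 CPM in JP2CR TAC against 31.7 ± 1.78 in JP2CR sham and 26.3 ± 1.04 CPM in WT TAC against 30.0 ± 1.78 in WT sham (SD, n = 4 each), and fell in both (log2 fold changes of -0.28 and -0.19, edgeR adjusted p = 0.00227 and 0.024). The WT call was lost without library 2 of WT sham, or library 2 or 4 of WT TAC. The JP2CR call was lost without all 5 libraries that stand apart (log2 fold change -0.28, edgeR adjusted p = 0.054, range 0.00126 to 0.054 over the alternatives).

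Ndufaf5 and Ndufaf7 modify arginines of core subunits, Ndufaf5 by hydroxylating Ndufs7 and Ndufaf7 as a methyltransferase. Ndufaf5 had 20.4, 18.1, 20.5 and 19.5 CPM in JP2CR TAC and 25.0, 25.3, 23.4 and 26.1 CPM in JP2CR sham. In WT it had 17.7, 19.8, 17.5 and 20.0 CPM after TAC and 23.0, 26.5, 24.2 and 24.3 CPM after sham. The groups were separate, and Ndufaf5 fell by 21.2% in JP2CR and by 23.5% in WT (edgeR adjusted p = 0.000727 and 0.000224), close to the median of the subunits. Ndufaf7 had 33.4, 30.8, 32.1 and 31.6 CPM in JP2CR TAC and 36.8, 34.3, 37.2 and 37.5 CPM in JP2CR sham. It had 34.6, 34.7, 34.8 and 34.2 CPM in WT TAC and 35.7, 36.3, 35.8 and 37.3 CPM in WT sham. Neither pair overlapped, but the step was small: Ndufaf7 was called lower in JP2CR (log2 fold change -0.19 ± 0.05, edgeR adjusted p = 0.00399) and not in WT (-0.07 ± 0.05, edgeR adjusted p = 0.246). The JP2CR call was lost without the 3 Xist-positive libraries (log2 fold change -0.15, edgeR adjusted p = 0.0869, range 0.00258 to 0.17 over the alternatives).

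The remaining Ndufaf genes were called in WT only narrowly. Ndufaf1, of the assembly complex for the membrane arm, averaged 51.8 ± 0.332 CPM in JP2CR TAC against 56.0 ± 3.11 in JP2CR sham, and 51.8 ± 2.12 CPM in WT TAC against 57.2 ± 3.5 in WT sham (SD, n = 4 each). Ndufaf2, a relative of the subunit Ndufa12 that acts late, averaged 14.3 ± 0.646 CPM in JP2CR TAC against 16.1 ± 1.44 in JP2CR sham, and 13.9 ± 0.515 CPM in WT TAC against 15.9 ± 0.754 in WT sham. Ndufaf6, an early factor, averaged 12.1 ± 1.03 CPM in JP2CR TAC against 14.0 ± 2.05 in JP2CR sham, and 12.3 ± 1.27 CPM in WT TAC against 15.0 ± 1.36 in WT sham. TAC and sham libraries of Ndufaf2 did not overlap in either genotype, those of Ndufaf1 overlapped in WT, and those of Ndufaf6 overlapped in both. Their edgeR adjusted p in WT were 0.0452, 0.0408 and 0.045, and in JP2CR 0.113, 0.0758 and 0.134. Of 26 alternatives, the WT call was lost in 16 for Ndufaf1, 11 for Ndufaf2 and 13 for Ndufaf6.

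Across the 35 subunits, the TAC effect in JP2CR had a Pearson r of -0.1 with log2 exon length and that in WT an r of -0.51, against 0.1 and 0.09 over all genes, as a description over genes of the same libraries.

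Summed in each library, the structural subunits came to 10690 ± 246 CPM in JP2CR TAC against 13300 ± 421 in JP2CR sham, and to 10720 ± 376 CPM in WT TAC against 13230 ± 106 in WT sham (SD, n = 4 each). The 7 Ndufaf genes summed to 213.9 ± 2.88 CPM in JP2CR TAC against 263.8 ± 18.5 in JP2CR sham, and to 215.2 ± 7.33 CPM in WT TAC against 252.3 ± 6.35 in WT sham. Every TAC library lay below every sham library of its genotype in the mean log2 CPM of each class. The structural mean minus the assembly mean, on the log2 scale, was 3.25 ± 0.03 in JP2CR TAC and 3.29 ± 0.05 in JP2CR sham, and 3.25 ± 0.06 in WT TAC and 3.31 ± 0.04 in WT sham, with overlapping libraries in both genotypes. The shift between TAC and sham in this difference was about the size of the SD between libraries.

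**Figure D3:**
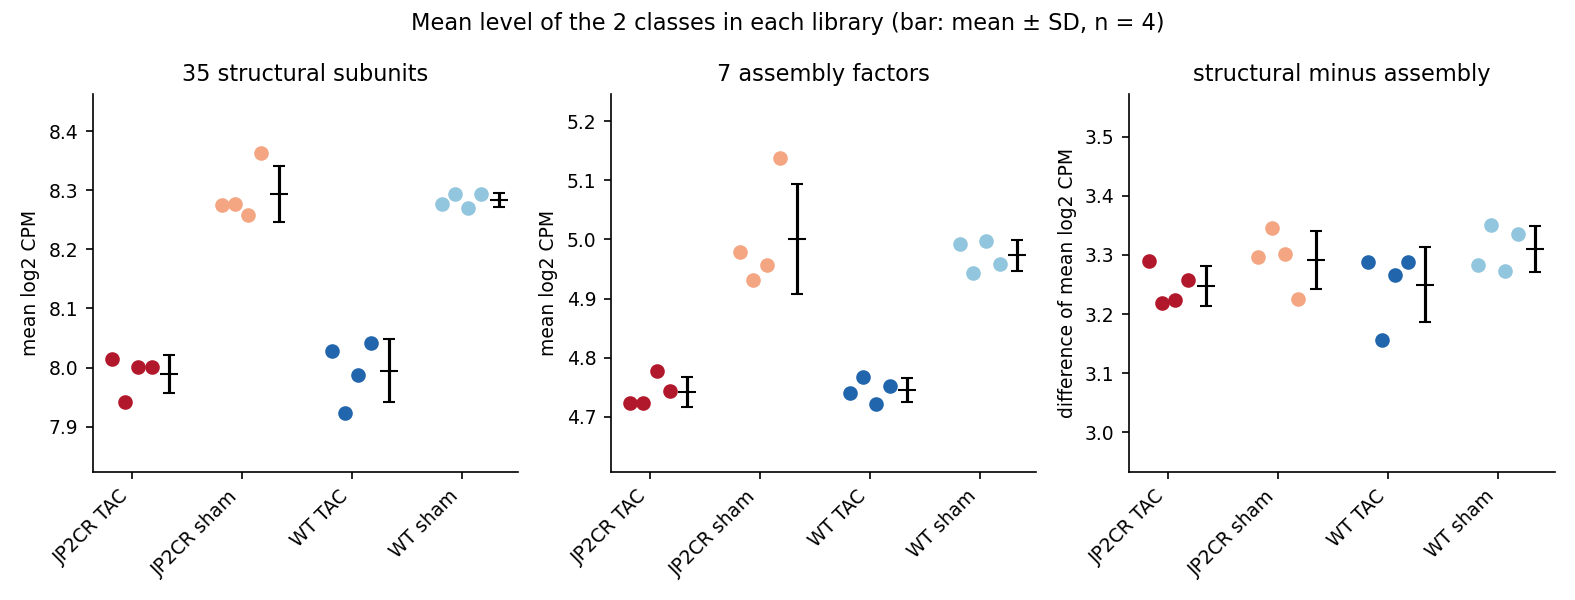
Mean log2 CPM of the 35 structural subunits, of the 7 Ndufaf assembly factors, and their difference, for each library, with group means and SD (n = 4). TAC libraries lie below sham libraries in the first 2 panels, from 7.92 to 8.04 against 8.26 to 8.36 for the subunits, and overlap with them in the difference.

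Among assembly factors with other symbols the calls also went in 1 direction. Of 13 tested, 9 fell in JP2CR TAC and 7 in WT TAC, with median log2 fold changes of -0.21 and -0.24, and 0 rose. Of all genes tested, 20.7% were called lower in JP2CR TAC and 20.8% in WT TAC. Ecsit, which works with Ndufaf1 on the membrane arm, had the lowest log2 fold change in JP2CR TAC (-0.38 ± 0.05, edgeR adjusted p = 3.23e-05) and fell by 0.27 in WT TAC. Tmem70, a membrane protein also needed for ATP synthase assembly, had the lowest log2 fold change in WT TAC (-0.34, edgeR adjusted p = 7.3e-05) and fell by 0.33 in JP2CR TAC. Aifm1, Atp5sl, Tmem186, Foxred1 and Tmem126a were called lower in both genotypes, with log2 fold changes between -0.38 and -0.16. Nubpl, which delivers iron-sulfur clusters, and Acad9, a partner of Ecsit, were called in JP2CR TAC (log2 fold changes of -0.30 and -0.20, edgeR adjusted p = 0.0215 and 0.00341) and not in WT TAC (-0.24 and -0.10, edgeR adjusted p = 0.0653 and 0.0958). Timmdc1, which anchors an early membrane intermediate, was the highest in each comparison and was not called (log2 fold changes of -0.08 in JP2CR, 0.06 ± 0.05 in WT).

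Subunits of the other respiratory complexes fell too. For complexes II to V, 39 of 39 genes fell in JP2CR TAC (against 20.7% of all genes) and 36 of 39 in WT TAC (against 20.8%). Their median log2 fold changes were -0.36 and -0.34. Ndufa4, once assigned to complex I and now counted with cytochrome c oxidase, fell as these did: it had 683, 673, 709 and 675 CPM in JP2CR TAC against 858, 869.6, 809 and 897 in JP2CR sham, and 663, 680.4, 666 and 749 CPM in WT TAC against 888, 819, 878 and 830.0 in WT sham. The groups did not overlap, and its log2 fold changes were -0.33 in JP2CR and -0.31 in WT (edgeR adjusted p = 4.6e-05 and 6.56e-05). Ndufa4l2, its hypoxia-inducible relative, was the only Nduf gene with positive estimates. It averaged 21.1 ± 1.17 CPM in JP2CR TAC against 20.1 ± 1.55 in JP2CR sham, and 21.3 ± 1.99 CPM in WT TAC against 18.6 ± 1.59 in WT sham, with overlapping libraries and no call (log2 fold changes of 0.07 and 0.20, edgeR adjusted p = 0.518 and 0.0679). It was called higher in WT TAC when library 2 of WT sham was left out (edgeR adjusted p = 0.0309) or library 4 of WT TAC (edgeR adjusted p = 0.0189; range 0.0189 to 0.186 over the alternatives).

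**Figure D4:**
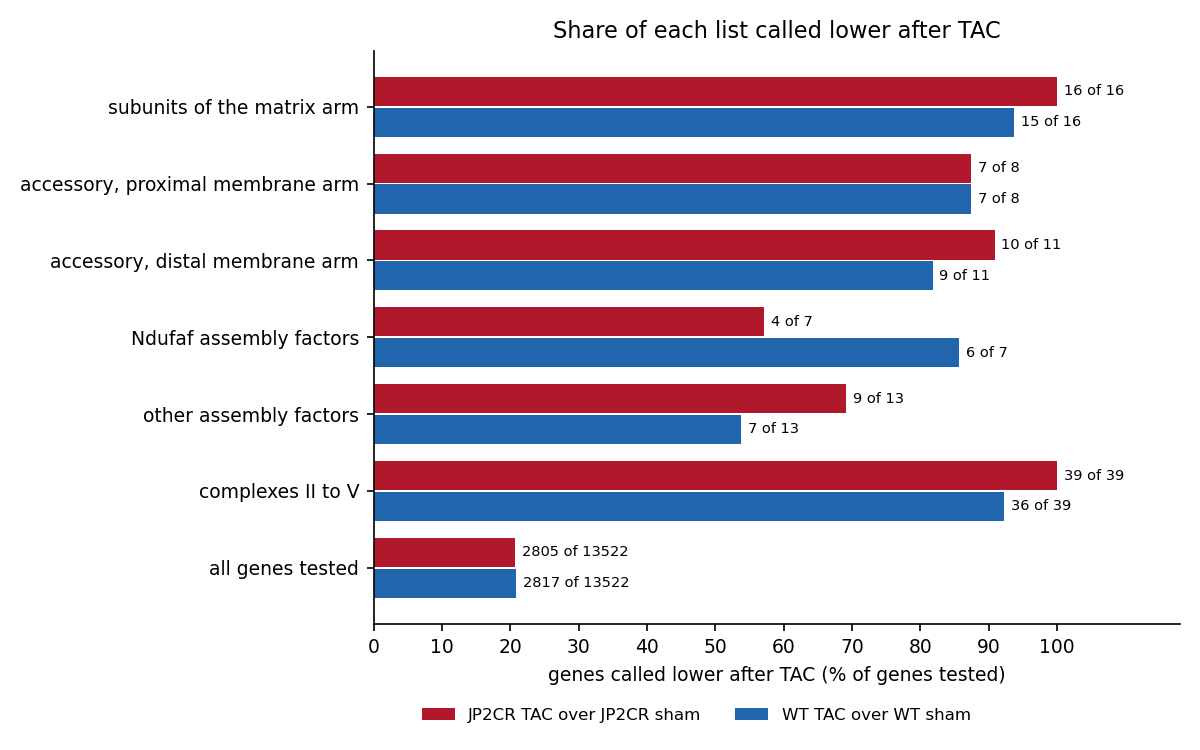
Percentage of genes called lower after TAC (edgeR adjusted p under 0.05) in JP2CR and WT, by list, with the number called and tested on each bar. The complex I lists and complexes II to V stand well above the bar of all 13522 genes, at 20.7% in JP2CR and 20.8% in WT.

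No Nduf gene had a TAC effect that differed between the genotypes past the threshold. Of 44, 35 were called lower in both genotypes, 3 in JP2CR only (Ndufa2, Ndufb7 and Ndufaf7), 3 in WT only (Ndufaf1, Ndufaf2 and Ndufaf6) and 3 in neither (Ndufb3, Ndufa11 and Ndufa4l2). Of all genes tested, 20.7% were called lower in JP2CR TAC and 20.8% in WT TAC. The share of all genes called lower in both is not given here, so the split is a description of these genes only. Across the 44 genes the JP2CR and WT effects had a Pearson r of 0.8 and a Spearman rho of 0.73, close to the 0.77 and 0.78 over all genes, as a description across genes that share libraries. For the difference between the TAC effects, JP2CR minus WT, edgeR called 0 of 44, where it called 0.118% of all genes in either direction, and DESeq2 called 0. At an unadjusted p under 0.05 there were 2 of the 44, against 10.3% of all genes. The estimates of this difference, on the log2 scale, were between -0.19 and 0.20 for the subunits (SE 0.053 to 0.11) and between -0.19 and 0.07 for the assembly factors (SE 0.067 to 0.154), so differences of this size were not detectable here.

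Ndufs6 had the smallest p for that difference, at -0.19 ± 0.07 on the log2 scale (edgeR adjusted p = 0.302). The per-library values given above place its JP2CR sham libraries above all WT sham libraries, as 1.98% of all genes were, while its TAC libraries overlapped between genotypes. Ndufb2, a distal membrane arm subunit, differed the other way, at 0.20 ± 0.08 (edgeR adjusted p = 0.367). Ndufb2 had 131, 126, 134 and 127 CPM in JP2CR TAC against 146, 157, 150.2 and 144 in JP2CR sham, and 128, 122, 119.8 and 122 CPM in WT TAC against 181, 169, 149.8 and 153 in WT sham. Its sham libraries overlapped between genotypes. Ndufa2 followed, at -0.14 ± 0.07 (edgeR adjusted p = 0.54). For the genes called in JP2CR only, Ndufaf7 and Ndufb7, the differences were -0.12 ± 0.07 and -0.12 ± 0.11 (edgeR adjusted p = 0.58 and 0.768).

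**Figure D5:**
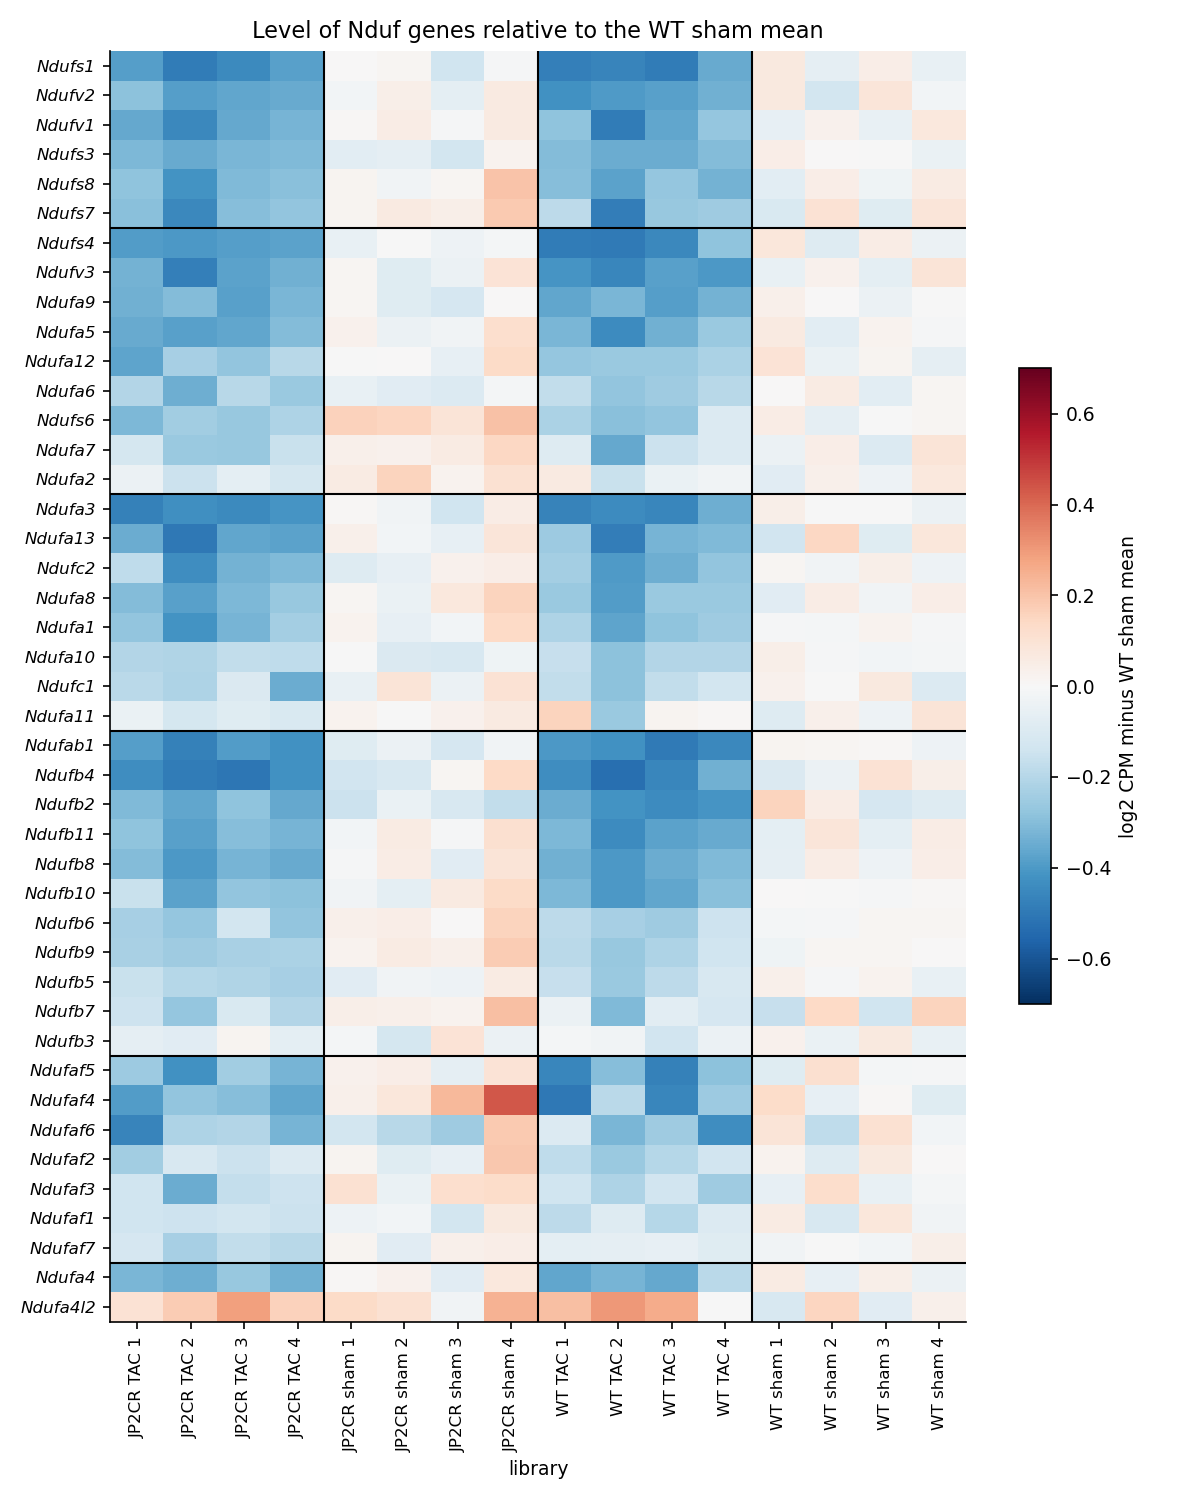
Log2 CPM (pseudocount 0.5) of tested Nduf genes minus their WT sham mean, 1 column per library, genes grouped by role. The JP2CR TAC and WT TAC columns are below 0 for most genes, and the JP2CR sham columns stay near 0 apart from single genes such as Ndufaf4 in libraries 3 and 4.

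Genotype alone moved none of these genes past the threshold. In JP2CR sham against WT sham, edgeR and DESeq2 called 0 of 44, where edgeR called 0.0961% of all genes. At an unadjusted p under 0.05 there were 3, against 7.97% of all genes. By log2 fold change the 3 were Ndufs6 (0.15 ± 0.05, edgeR adjusted p = 0.369), Ndufaf4 (0.20 ± 0.09, edgeR adjusted p = 0.543) and Ndufb2 (-0.13 ± 0.06, edgeR adjusted p = 0.583). Without the 3 Xist-positive libraries, the log2 fold change of Ndufaf4 was 0.05 and that of Ndufs6 0.15. In JP2CR TAC against WT TAC, edgeR and DESeq2 again called 0, where edgeR called 0.651% of all genes. At an unadjusted p under 0.05 there was 1, against 12.9% of all genes. That gene was Ndufaf7, at a log2 fold change of -0.11 ± 0.05 (edgeR adjusted p = 0.327), with all JP2CR TAC libraries below all WT TAC libraries, as 4.13% of all genes were. Next in order of p were Ndufb10 and Ndufb2, both of the distal membrane arm, each at a log2 fold change of 0.07 (edgeR adjusted p = 0.625 and 0.646).

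Several features of the libraries moved with the TAC groups, and their part in these results was not tested. Of all genes tested, 20.7% were called lower and 20.7% higher in JP2CR TAC, and 20.8% and 21.1% in WT TAC. Cardiomyocyte markers summed to between 81505 and 87937 CPM in JP2CR TAC against 95104 to 118210 in JP2CR sham. In WT they summed to between 81306 and 88399 CPM after TAC against 99117 to 104120 after sham. Myh6 was the largest part of each sum. It averaged 25030 CPM in JP2CR TAC against 40800 in JP2CR sham, and 23850 in WT TAC against 37800 in WT sham. Mean log2 CPM of the cardiomyocyte markers overlapped, at 12.348 to 12.482 in JP2CR TAC against 12.479 to 12.652 in JP2CR sham. In WT it was 12.374 to 12.501 after TAC against 12.497 to 12.539 after sham, also overlapping. Of 12 such markers, 6 fell and 3 rose in JP2CR TAC, and 5 fell and 4 rose in WT TAC. Fibroblast markers averaged 2914 CPM summed in JP2CR TAC against 1689 in JP2CR sham, and 3064 in WT TAC against 1740 in WT sham, with 4 of 8 (Postn, Col1a1, Col1a2 and Col3a1) called higher in each genotype. Pdgfra, Dcn and Lum were called in neither, and Tcf21 was called lower in JP2CR TAC (log2 fold change -0.32). Of 8 macrophage markers, 7 rose in each genotype. Endothelial markers moved little: of 8, 2 fell in JP2CR TAC and 0 in WT TAC, with median log2 fold changes of 0.03 and -0.05. Of 10 adipocyte markers, 8 fell in WT TAC and 0 in JP2CR TAC. They summed to 501.85 to 640.44 CPM in JP2CR TAC against 369.49 to 766.18 in JP2CR sham. In WT they summed to 376.78 to 445.28 CPM after TAC against 420.83 to 708.46 after sham. Fabp4, called in neither genotype, was the largest part of the adipocyte sums. It averaged 467.5 CPM in JP2CR TAC, 424.2 in JP2CR sham, 369.8 in WT TAC and 422.5 in WT sham. Ucp1 and Retn had 0 counts in all WT TAC libraries. Of 10 atrial markers, 4 fell and 1 rose in JP2CR TAC, and 8 fell and 2 rose in WT TAC. Their mean log2 CPM was between 6.10 and 6.54 in JP2CR TAC against 6.995, 7.42, 7.45 and 3.54 in JP2CR sham, where library 4 alone lay below the TAC libraries, and between 4.71 and 5.89 in WT TAC against 6.98 to 7.97 in WT sham.

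Without the 3 Xist-positive libraries, 31 of 35 subunits and 3 of 7 Ndufaf genes fell in JP2CR TAC. Without all 5 libraries that stand apart, 26 and 2 did, with the calls of Ndufa2, Ndufa7, Ndufa10, Ndufb2, Ndufb5, Ndufb7, Ndufc2, Ndufaf3 and Ndufaf7 lost. That setting leaves only libraries 1 and 2 of JP2CR TAC and of JP2CR sham. The share of all genes called under these 2 settings is not given here, so a general loss of calls was not set apart. The median log2 fold change of the subunits in JP2CR was -0.312 and -0.323 in the same order, beside 0.004 over all genes in each. In the authors' deposited table, 38 of 44 Nduf genes were lower after TAC in JP2CR and 34 of 44 in WT, and 0 were higher. Ndufa11 was among those lower in JP2CR. Of all genes with a p-value there, 34.5% in JP2CR and 42.3% in WT were called, counting both directions. Exons of 16 of the 45 genes overlap another gene, on the same strand for Ndufb2, Ndufb8 and Ndufb9, and the strand setting of the counts is not given, so reads of such pairs may be shared.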

How the data were processed

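Ventricular polyA RNA was prepared with Trizol and sequenced as stranded libraries, per the labels. The deposited values used here are raw read counts per gene. The submitters' processing notes name the mm10 build and the tools Picard 1.128, FastQC 1.0.0, Cufflinks 2.2.1, STAR 2.5.0b, DESeq2 1.6.3 and bedtools 2.17.0; what each did, and which counter, strand setting and annotation were used, is not given in the sources used here. The authors' deposited table also holds a log2 ratio and an adjusted p-value per gene for TAC in each genotype, and other columns for the sham genotype comparison that mix numbers and text, which were used only to count calls.

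Counts of all 24421 genes were filtered with filterByExpr and scaled by TMM, and 13522 genes were fitted with edgeR 4.0.16 (R 4.3.3, quasi-likelihood, group means over 16 libraries), with Benjamini-Hochberg adjustment over all of them and a threshold of 0.05. The 5 contrasts were read from this model, and SE are those of the fitted log2 fold changes. CPM used TMM library sizes, and values per kilobase used merged exons of the GENCODE basic annotation. Alternatives were DESeq2 1.42.0, other filters and scalings, a replicate block, each library left out in turn and the libraries that stand apart. Simulated data with known changes were used to test the scripts. No 2 replicates agreed within sampling noise. Tables were handled with Python 3.11.15 and pandas 2.3.3 and drawn with matplotlib 3.10.9.

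The genes and lists were chosen with earlier results of these data known. Named singly, apart from 1 gene that is not reported here, were the core subunits, Ndufs4, Ndufs6, Ndufa1, Ndufb11, Ndufab1, Ndufa4, Ndufa4l2 and every tested Ndufaf gene; the 4 lowest and 3 highest accessory subunits by WT TAC effect; the 3 smallest p in each comparison without a call; genes whose call differed between the TAC comparisons; and other assembly factors called, or lowest or highest. Ndufaf8, listed under an older symbol, was counted with the other assembly factors.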

Additional observations from a re-analysis of the deposited data

Results flagged for a closer look

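In 6 of 176 combinations of gene and group, 1 library lay far from the other 3 (its gap to the nearest, as a share of the group's range, was above Dixon's critical value for 4 samples), where chance flags about 1 in 20. In JP2CR TAC, library 2 was low for Ndufs7 (282.9 CPM) and for Ndufaf3 (23.39 CPM). In JP2CR sham, library 3 was low for Ndufs1 (991.3 CPM), library 2 was low for Ndufaf3 (29.01 CPM) and library 4 was high for Ndufb7 (306.1 CPM). In WT TAC, library 2 was low for Ndufa8 (259.7 CPM).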

How the results depend on the processing

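The number of structural subunits called lower stayed within 1.5 times its value under every alternative run, at 32 to 33 in JP2CR TAC and 29 to 31 in WT TAC with 1 library left out. No Nduf gene was called in the difference between TAC effects or in either genotype comparison under these alternatives. The Ndufaf count was less stable: 6 in WT TAC became 3 with DESeq2, 3 with low counts kept in, 3 when both intermediate TAC libraries or all 5 libraries that stand apart were left out, and 2 at an adjusted p under 0.01, and lay between 3 and 6 with 1 library left out. In JP2CR TAC it was 4 with any 1 library left out and 2 without all 5 libraries. The cause was not tested, apart from the fewer samples and the stricter threshold by construction. Over single genes and 26 settings, 2448 values kept their direction and call, 65 lost the call, 2 gained it (Ndufa4l2) and 4 turned sign, none of them called. These were Ndufa11 in WT (0.014 without library 4 of WT sham, 0.062 without library 2 of WT TAC; lowest -0.074) and Ndufb3 in JP2CR (0.016 without library 3 of JP2CR sham, 0.029 without the 3 Xist-positive libraries; lowest -0.064). Replicate numbers gave no sign of pairing the libraries. Same-numbered pairs had correlations of -0.187 to 0.108 and other pairs -0.223 to 0.221, and 2 of 16 libraries correlated best with their own number. With 4 libraries in a group, a weak pairing would not be seen in this way. With a replicate block, 33 subunits and 4 Ndufaf genes were lower in JP2CR TAC, 31 and 4 in WT TAC, and 0 Nduf genes were called in the other 3 comparisons. The shares of all genes called under the alternatives are not given here. In the fit of all 16 libraries without a block, 20.7% were called lower in JP2CR TAC and 20.8% in WT TAC. The libraries that stand apart and the threshold of 0.01 were alternatives chosen after seeing the data. In WT the SE of the log2 fold changes were 0.047 to 0.108 for the Ndufaf genes, beside their median of -0.198, and 0.038 to 0.078 for the structural subunits.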
